A study of Mus musculus with 6 samples.

Results

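The genes described are 10 that encode proteins of the hepatocyte lipid droplet: the CIDE genes *Cidea*, *Cideb* and *Cidec*, the perilipin genes *Plin2*, *Plin3*, *Plin4* and *Plin5*, and *Pnpla2*, *Abhd5* and *G0s2*, which encode a lipase and its activator and inhibitor. They are 10 of the 55487 genes in the count tables, and 9 of them were among the 12741 genes with enough counts to be tested. The set was chosen by family and function, but with the difference between genotypes in these same libraries already known. The differences between genotypes in the levels of the 10 genes are therefore given as a description, with no p-value printed. Whether a member was called in the fit of all genes is stated as part of that description.

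Lipid droplets store triglyceride and sterol esters under a coat of proteins. CIDE proteins sit where droplets touch and move lipid from smaller to larger ones, and CIDEB also serves the loading of lipid onto very low density lipoprotein. Perilipins cover the droplet surface and limit the access of lipases, and adipose triglyceride lipase, encoded by *Pnpla2*, takes the first step of triglyceride breakdown, helped by ABHD5 and held back by G0S2. Several of these genes are known targets of PPAR transcription factors, and *Cidec*, *Plin2* and *Plin4* are known to rise in fatty liver.

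The libraries came from hepatocytes isolated from the liver of adult mice aged 6 to 8 weeks. One group was homozygous for AEG-1-C75S (called C75S), in which the palmitoylated cysteine of AEG-1, a membrane protein encoded by *Mtdh*, is a serine, and the other was wild type (WT). Mice of both genotypes were bred from heterozygous parents, all samples carry the treatment label Control, and RNA was taken 48 h after isolation, so all cells had spent that time outside the liver. Each group holds 3 libraries, and the labels do not say whether these came from separate mice, so the spread given is that between libraries and may be technical.

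Each library held 16944723 to 21044292 counts on genes, and 3 counts, taken as the detection floor, corresponded to 0.142 to 0.172 CPM (counts per 1000000, on library sizes scaled by edgeR's TMM factors). All 14 hepatocyte markers of a fixed list were above that floor in every library, with summed levels of 73495 to 87860 CPM in C75S and 83775 to 90835 CPM in WT, most of it *Alb*. Of the 14, 3 were called higher in C75S in edgeR's test: *Apoa2* (log2 fold change 0.45, adjusted p = 2.9e-05), *Fgb* (0.32, adjusted p = 0.00112) and *Cyp2e1* (0.31, adjusted p = 0.00908). Over all genes, 222 of 12741 were called higher. By point estimate 7 of the 14 were lower in C75S, none of them called, and the median log2 fold change of the list was 0.01. Among those 7 were *Cyp3a11*, at -0.26 with no overlap between genotypes, and *Alb*, at -0.15 with overlap. The level of *Mtdh* was 196.8 ± 5.18 CPM in the WT libraries and 199.8 ± 10.5 CPM in the C75S libraries (mean and SD of 3), and these counts do not read the changed codon. Of the 12 adipocyte markers, *Lep*, *Retn* and *Slc2a4* were at 0 in every library and *Adipoq* had at most 1 count in a library, and the summed level was 35.9 to 42.7 CPM in C75S and 39.1 to 42.4 CPM in WT. Summed markers of Kupffer cells and macrophages (97.4 to 141 CPM in C75S, 104 to 136 CPM in WT), stellate cells (62.2 to 78.2 and 74.3 to 96.1 CPM) and endothelial cells (41.7 to 52.3 and 39.5 to 49.5 CPM) overlapped between genotypes. Those of cholangiocytes did not, at 271 to 329 CPM in C75S and 245 to 256 CPM in WT, and 1 of 8 tested cholangiocyte markers, *Krt19*, was called higher in C75S, as was the stellate cell marker *Acta2*. Most of the Kupffer cell and macrophage sum was *Cd68* (118.2 ± 21.9 CPM in C75S, 116.6 ± 16.2 CPM in WT), and 2 of these 12 markers were tested. The stellate cell sum was mostly *Reln* (58.7 ± 8.70 CPM in C75S, 75.2 ± 11.5 CPM in WT), so it says little about the other stellate cell markers. *Reln* had a log2 fold change of -0.36, with overlap, and was not called, while *Acta2*, far less abundant, went the other way (0.82). By point estimate 3 of 6 tested stellate cell markers were lower in C75S, and their median log2 fold change was 0.04. The largest part of the endothelial sum was *Stab2* (24.9 ± 4.88 CPM in C75S, 26.4 ± 5.75 CPM in WT). Of 9 tested endothelial markers, 1 was lower in C75S by point estimate and none was called, with a median log2 fold change of 0.34. The part of these cells and markers in the values below was not tested. Fewer cells of a type and less RNA per cell cannot be told apart in bulk samples.

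*Cidec*, *Plin4* and *Plin5* were lower in C75S hepatocytes, while *Plin2*, the most abundant of the 10 genes per length, overlapped between genotypes, with a difference near 0. In the fit of all genes, 3 of the 9 tested members were called (Benjamini-Hochberg adjusted p under 0.05 in edgeR's quasi-likelihood test), all 3 of them lower in C75S. Over all genes tested the share called was 3.11%, and the share called lower was 1.37%. In 5 of the 9, *Cideb*, *Cidec*, *Plin4*, *Plin5* and *G0s2*, every C75S library was below every WT library, against 8.96% of all genes tested. Since the set was chosen with this contrast known, nothing is read from these counts. Over the 9 tested members the median log2 fold change was -0.16, and over all genes it was -0.003, with C75S set against WT.

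**Figure D1:**
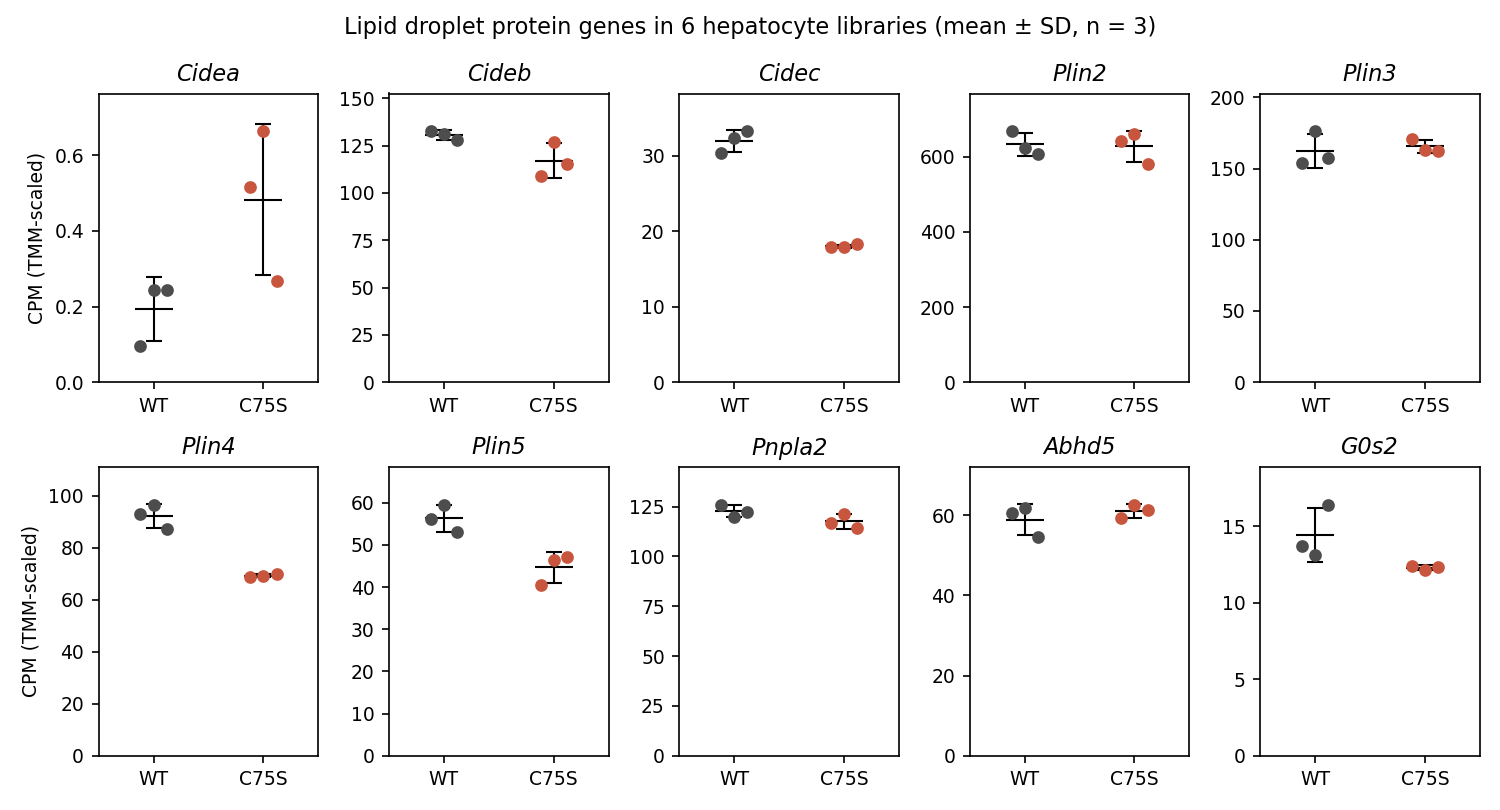
Level of each gene in CPM (vertical axes start at 0) in the 3 WT and 3 C75S libraries, 1 point per library, with the mean and SD as bars. The C75S points of *Cidec*, *Plin4* and *Plin5* all lie below the WT points, and those of *Plin2*, *Plin3*, *Pnpla2* and *Abhd5* overlap with them.

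Among the CIDE genes, *Cidec* (ENSMUSG00000030278, chromosome 6, 113424634 to 113435760, minus strand, GRCm38) encodes the family member that enlarges droplets in fat and in fatty liver. It was measured at 17.9, 17.8 and 18.2 CPM in C75S replicates 1 to 3 and at 30.3, 32.3 and 33.2 CPM in WT replicates 1 to 3. The C75S libraries were thus all low and within 0.5 CPM of each other, and the genotypes did not overlap. The mean was 31.9 ± 1.51 CPM in WT, and the C75S mean of 18 CPM had an SD of 0.21 CPM (n = 3 each), so that C75S stood at 56.3% of WT, a log2 fold change of -0.83 (SE 0.08, 95% interval -0.997 to -0.66). In the ranking of all 12741 genes, 93 had a lower log2 fold change. The SD between C75S libraries was below the 0.97 CPM that counting alone gives at this level.

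*Cideb* (ENSMUSG00000022219, chromosome 14, 55754050 to 55758458, minus strand) is the CIDE gene that healthy liver expresses. It had 108.7, 127.1 and 115.2 CPM in C75S and 132.7, 131.3 and 127.9 CPM in WT. The genotypes did not overlap, but C75S replicate 2 lay within 1 CPM of WT replicate 3. The log2 fold change was -0.16 (SE 0.06, 95% interval -0.27 to -0.04) and was not called. Without C75S replicate 2 it was -0.22 and was called. Exons of *Cideb* share 1136 of 1488 bases with *Nop9* on the opposite strand, and counting without regard to strand kept 12.8% of its reads, so its level rests on the strand-specific counts.

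*Cidea* (ENSMUSG00000024526, chromosome 18, 67343604 to 67367785, plus strand), which is known from brown fat and from steatotic liver, was close to the detection floor and too low to be tested. It had 9, 14 and 5 counts in C75S and 2, 5 and 5 counts in WT, 28 against 12 in all. In CPM the lowest C75S library, at 0.27, stood just above the highest WT library, at 0.24. With no filter on low counts its log2 fold change was 1.30 (SE 0.73, 95% interval -0.13 to 2.73), an interval that includes 0.

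Among the perilipins, *Plin4* (ENSMUSG00000002831, chromosome 17, 56100591 to 56109803, minus strand) encodes a coat protein with a long run of amphipathic repeats, best known from adipocytes and muscle. It had 68.6, 69.1 and 70.0 CPM in C75S and 92.8, 96.5 and 87.3 CPM in WT. All C75S libraries were again low and close together, and the groups did not overlap. The C75S SD of 0.69 CPM was below the 1.91 CPM that counting alone gives at this level. C75S stood at 75.1% of WT, a log2 fold change of -0.41 (SE 0.05, 95% interval -0.53 to -0.30).

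*Plin5* (ENSMUSG00000011305, chromosome 17, 56111601 to 56117596, minus strand) encodes the perilipin of oxidative tissues, which ties droplets to mitochondria. It had 40.5, 46.4 and 47.1 CPM in C75S and 56.2, 59.6 and 53.1 CPM in WT, with C75S replicate 1 the lowest and no overlap. C75S stood at 79.4% of WT, a log2 fold change of -0.33 (SE 0.07, 95% interval -0.47 to -0.19). It lost its call without WT replicate 2, where the value was -0.29.

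*Plin2* (ENSMUSG00000028494, chromosome 4, 86648386 to 86670060, minus strand), the main droplet coat protein of hepatocytes, had 641.2, 660.8 and 582.0 CPM in C75S and 668.4, 622.6 and 608.8 CPM in WT. The libraries of both genotypes were interleaved. The log2 fold change was -0.01 (SE 0.06), with a 95% interval of -0.13 to 0.10. Its sign turned with library-size scaling and when C75S replicate 3 or WT replicate 1 was left out, and it stayed between -0.05 and 0.04 in all 16 alternatives.

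*Plin3* (ENSMUSG00000024197, chromosome 17, 56277476 to 56292873, minus strand), which is found in the cytosol and on new droplets, had 171.1, 163.2 and 162.7 CPM in C75S and 154.2, 176.3 and 157.3 CPM in WT. The lowest and the highest library were both WT. The log2 fold change was 0.03 (SE 0.05, 95% interval -0.08 to 0.14), and it was -0.009 without WT replicate 1. *Plin1*, the adipocyte perilipin, had 1 count in a single C75S library and 0 in the other 5.

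**Figure D2:**
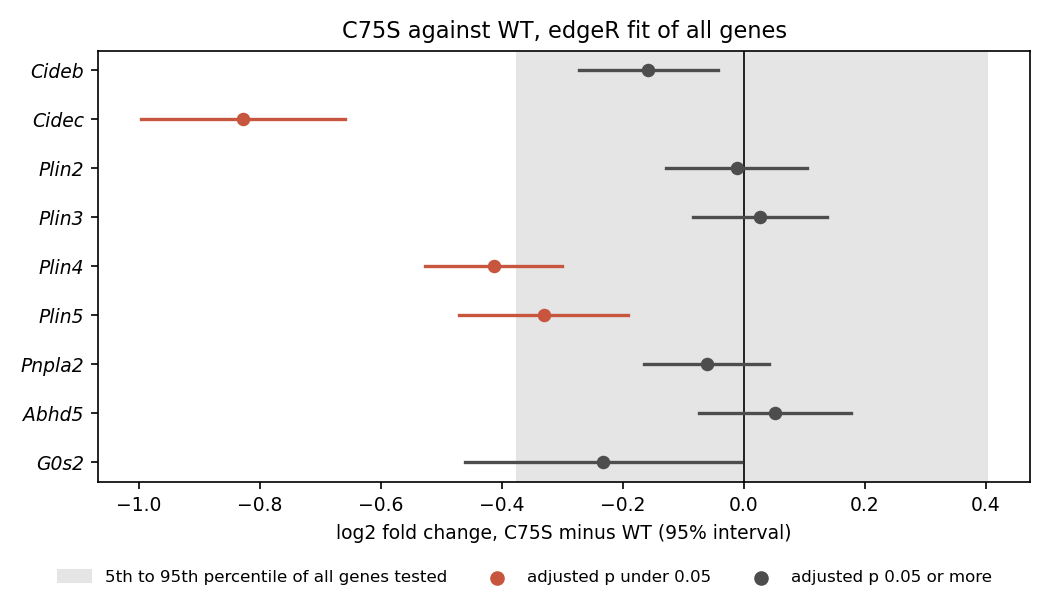
Log2 fold change of C75S against WT for the 9 tested genes (horizontal axis), with 95% intervals as lines, over a grey band from the 5th to the 95th percentile of all 12741 genes tested (-0.37 to 0.40). *Cidec* at -0.83 lies outside the band with its whole interval, *Plin4* at -0.41 lies just outside it with an interval that reaches into it, and the other 7 points lie inside.

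Among the lipase and its regulators, *Pnpla2* (ENSMUSG00000025509, chromosome 7, 141455198 to 141460743, plus strand) had 116.8, 121.5 and 114.4 CPM in C75S and 126.0, 119.7 and 122.4 CPM in WT. C75S replicate 2 lay above WT replicate 2, so the groups overlapped, and the log2 fold change was -0.06 (SE 0.05, 95% interval -0.17 to 0.04). *Abhd5* (ENSMUSG00000032540, chromosome 9, 122351608 to 122381524, plus strand), the co-activator of that lipase, had 59.3, 62.7 and 61.3 CPM in C75S and 60.5, 61.7 and 54.6 CPM in WT. WT replicate 3 was the lowest and the groups overlapped. The log2 fold change was 0.05 (SE 0.06, 95% interval -0.07 to 0.18), and -0.0002 without WT replicate 3.

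*G0s2* (ENSMUSG00000009633, chromosome 1, 193272161 to 193273217, minus strand), the inhibitor of the lipase, was the lowest of these genes in CPM after *Cidea*. It had 12.4, 12.1 and 12.3 CPM in C75S and 13.7, 13.1 and 16.4 CPM in WT. The groups did not overlap, and WT replicate 3 stood above the other 2 WT libraries. Here too the C75S SD, 0.16 CPM, was below the 0.80 CPM that counting alone gives. The log2 fold change was -0.23 (SE 0.11, 95% interval -0.46 to -0.005) and was not called. Without WT replicate 3 it was -0.13.

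Levels were compared between genes only per length, as CPM per kilobase of merged exons. *Plin2* was the highest, with 178.8 ± 11.7 in C75S against 180.3 ± 8.89 in WT (± gives the SD of 3 libraries), and held 42.4% of the summed level of the 10 genes. *Cideb* followed with 78.6 ± 6.29 and 87.8 ± 1.65, then *Plin3* with 43.8 ± 1.24 and 42.9 ± 3.15 and *Pnpla2* with 38.9 ± 1.20 and 40.6 ± 1.04. The ranges of *Plin3* and *Pnpla2* over the 6 libraries overlapped, so these neighbours in the order were not separated. *Plin5* came next with 21.4 ± 1.74 and 27.0 ± 1.54, above and apart from *G0s2*.

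In the lower part of the order, *G0s2* stood at 14.1 ± 0.18 in C75S and 16.5 ± 2.01 in WT, *Plin4* at 11.98 ± 0.12 and 16.0 ± 0.81, *Cidec* at 9.70 ± 0.12 and 17.2 ± 0.81 and *Abhd5* at 10.3 ± 0.29 and 9.90 ± 0.64 CPM per kilobase. Neighbours among these 4 genes overlapped in their ranges over all libraries. Per kilobase of merged exons, *Cidec* was above *Abhd5* in every WT library and below it in C75S replicates 1, 2 and 3. *Cidea*, at 0.43 ± 0.18 and 0.17 ± 0.08, was the lowest. Summed over the 3 CIDE genes the level was 88.8 ± 6.34 in C75S and 105.2 ± 0.97 in WT, while the 4 perilipins summed to 256.0 ± 11.4 and 266.2 ± 9.62. *Pnpla2*, *Abhd5* and *G0s2* summed to 63.3 ± 1.23 in C75S and 67.1 ± 1.80 in WT. The genotypes did not overlap in the sums of the CIDE genes and of the lipase group, and they overlapped in that of the perilipins. Most of the CIDE sum was *Cideb* and most of the perilipin sum was *Plin2*, neither of which was called. No gene of the lipase group was called, and its sum was 64.7 in C75S replicate 2 and 65.1 in WT replicate 2. With the longest transcript in place of merged exons, 5 of the 10 genes kept their place in the order. *Abhd5*, whose merged exons of 5956 bases are longer than its longest transcript of 3157, then moved up to 19.0. This mean over the 6 libraries was above that of *Cidec*, at 14.5. The order of *Cidec* and *Abhd5* in WT given above therefore rests on the use of merged exons.

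**Figure D3:**
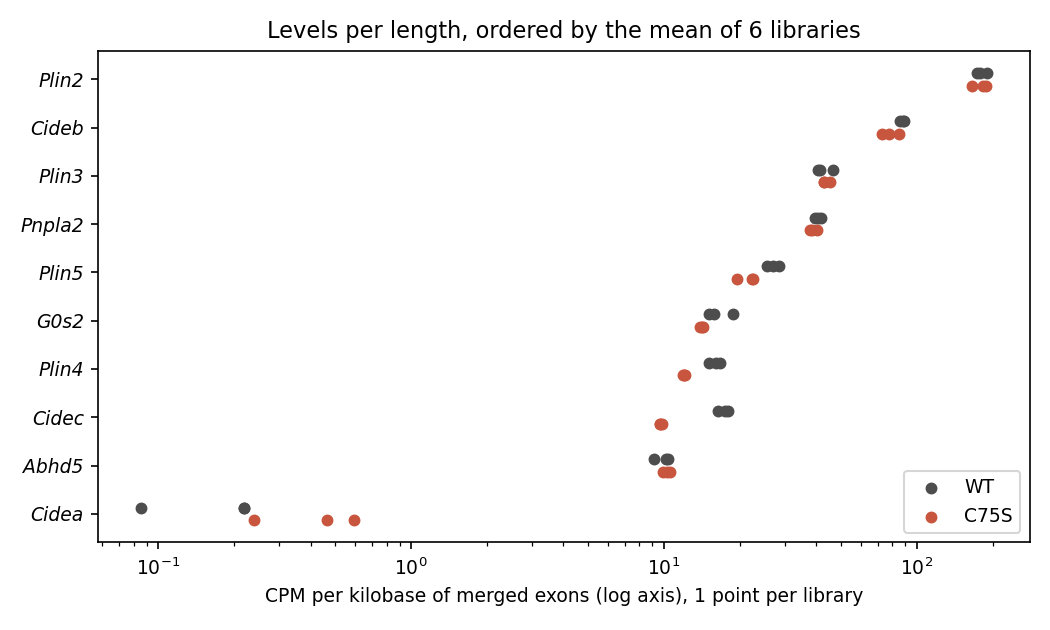
CPM per kilobase of merged exons (log axis) for the 10 genes, 1 point per library, ordered by the mean over 6 libraries. *Plin2* stands at 165.7 to 190.3 and *Cidea* at 0.09 to 0.60, and the genotypes separate for *Cidec* (9.61 to 9.83 in C75S, 16.3 to 17.9 in WT).

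The 3 members that were called lie at 2 places in the genome. *Plin4* and *Plin5* are neighbours on the same strand of chromosome 17, 1798 bases apart, while *Plin3* lies further along the same chromosome and was not called. Of the tested genes next to this pair, *Lrg1*, 2082 bases beyond *Plin5*, had a log2 fold change of -0.08 (adjusted p in edgeR's test 0.572), *Sema6b* one of -0.10 (0.784), and *Hdgfl2*, which shares 17 exon bases with *Plin4* on the opposite strand, one of -0.11 (0.541). *Ubxn6* had one of 0.06 (0.747). *Tnfaip8l1*, 44881 bases beyond *Plin5*, had one of -0.39, close to that of *Plin4*, and every C75S library of it was below every WT library, but with an SE of 0.21 it was not called (0.434). The 6 tested genes nearest to *Cidec*, 3 on each side, had log2 fold changes of -0.05 (*Rpusd3*) to 0.11 (*Arpc4*), and none was called, with adjusted p-values from 0.472 to 0.992 in edgeR's test. These neighbours were chosen after the values of the members were seen.

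The sequence before the start sites of the 3 called members is shown beside that of *Plin2*, whose genotypes overlapped, so that they can be compared. The windows are RefSeq's for GRCm38.p6, from 250 bases before to 30 bases after a transcription start, 5′ to 3′ on the gene's own strand, and 9 of the 10 members had at least 1 window, 11 windows in all. Both strands were searched for AGGTCA (the core of nuclear receptor sites), AGGTCANAGGTCA (its direct repeat, the PPAR element), CACGTG (the E-box), TGACGT (the core of CREB and CREB3L3 sites), TATAA and CCAAT, with overlapping matches kept. The letters of a match are in capitals. *Cidec* has 2 start sites in the table, at chr6:113435731-113436010 and chr6:113434735-113435014. The windows of *Plin4* (chr17:56109753-56110032), of the outer start of *Plin5* (chr17:56117519-56117798) and of *Plin2* (chr4:86670030-86670309) follow, all on the minus strand.
*Cidec*, outer start: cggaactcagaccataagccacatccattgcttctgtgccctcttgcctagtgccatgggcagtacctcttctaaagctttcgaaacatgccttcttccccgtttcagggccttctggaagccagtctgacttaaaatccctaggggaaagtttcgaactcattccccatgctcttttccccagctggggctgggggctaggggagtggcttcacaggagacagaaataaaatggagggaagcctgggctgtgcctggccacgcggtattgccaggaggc
*Cidec*, inner start: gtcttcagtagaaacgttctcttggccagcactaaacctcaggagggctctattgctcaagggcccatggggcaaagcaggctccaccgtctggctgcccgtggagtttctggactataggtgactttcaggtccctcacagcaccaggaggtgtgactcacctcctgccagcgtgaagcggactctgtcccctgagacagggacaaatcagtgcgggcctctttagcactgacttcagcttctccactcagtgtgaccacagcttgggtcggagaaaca
*Plin4*: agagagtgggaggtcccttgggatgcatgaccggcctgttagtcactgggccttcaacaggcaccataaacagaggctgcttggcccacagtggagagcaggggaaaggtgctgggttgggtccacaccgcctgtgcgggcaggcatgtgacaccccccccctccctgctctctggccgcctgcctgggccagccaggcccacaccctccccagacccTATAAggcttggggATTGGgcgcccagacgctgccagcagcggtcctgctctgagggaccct
*Plin5*, outer start: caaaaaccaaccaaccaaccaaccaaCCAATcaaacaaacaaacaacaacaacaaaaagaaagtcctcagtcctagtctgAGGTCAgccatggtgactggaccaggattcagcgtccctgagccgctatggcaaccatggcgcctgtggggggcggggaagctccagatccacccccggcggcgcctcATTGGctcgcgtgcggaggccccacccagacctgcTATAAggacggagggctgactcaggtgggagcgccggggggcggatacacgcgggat
*Plin2*: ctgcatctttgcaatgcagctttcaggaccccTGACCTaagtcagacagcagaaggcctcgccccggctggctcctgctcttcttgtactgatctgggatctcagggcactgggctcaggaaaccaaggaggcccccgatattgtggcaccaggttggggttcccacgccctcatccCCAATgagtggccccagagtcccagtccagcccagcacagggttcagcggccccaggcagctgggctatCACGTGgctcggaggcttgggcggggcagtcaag

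*Plin4* and *Plin5* each have TATAA just before the start, its first base at -32 and -27 from the start site, on the gene's strand. A TATAA was found in 3 of the 11 member windows, the other being that of *Cideb* at -172, and in 24% of all 32851 windows of this length. The same *Plin4* and *Plin5* windows hold CCAAT on the opposite strand, at -18 and -62, and *Plin5* also on its own strand at -224. CCAAT was in 4 of 11 member windows and 36.1% of all windows. AGGTCA was found in 4 member windows, those of *Plin2* at -218, *Abhd5* at -69 and both of *Plin5*, and in 15.3% of all. CACGTG was found across the start of *Plin2* and in 6.79% of all windows. The PPAR element (0.0365% of all windows) and TGACGT (7.26%) were in none of the member windows, and the *Cidec* windows held none of the motifs searched, which says only that these letters are not there. A match is a string of letters, not a bound site, and the motifs were chosen with the values known, TATAA after the sequences had been seen.

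The genes whose pattern over the 6 libraries was most like that of *Cidec*, among 9383 genes at 5 CPM or more, were *Cdc73* (Pearson r = 0.998 on log2 CPM), *Rad51d* (0.992) and *Ikbkg* (0.989). The points share their libraries, and the genotypes separate for *Cidec*, so r follows that separation. *Cdc73* had 24.5, 24.6 and 24.0 CPM in C75S and 42.0, 45.9 and 44.9 CPM in WT, a difference close in size to that of *Cidec*, while *Rad51d* and *Ikbkg* had log2 fold changes of -0.18 and -0.15. Most like *Plin2*, whose highs and lows do not follow genotype, were *Pik3ap1* (r = 0.985), *Tcim* (0.975) and *Abhd4* (0.975). The genes named for *Cidec* and *Plin2* are the highest of 9383, compared over only 6 libraries. With so few libraries, unrelated genes can also reach a high r, so no link between the genes is read from it.

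The other genes of the pathway were taken from 4 fixed lists, put together with earlier results of these libraries known. In the fit described, the genes in them that were called were all lower in C75S: 2 of 18 tested genes of lipolysis, 2 of 21 of droplet formation and triglyceride synthesis, 1 of 23 other droplet surface and contact proteins, and 6 of 29 regulators of droplet protein genes and shared PPAR targets. The median log2 fold changes were -0.09, -0.08, 0.02 and -0.10, beside -0.003 over all genes. The share called over all genes is 3.11%, so the count of the surface list was close to it. Each of the 11 called genes lost its call in at least 1 of 16 alternatives. Some alternatives also called a gene higher in C75S, above all *Acsl5*, an enzyme that activates fatty acids like *Acsl1*. *Acsl5* was at 344.2 ± 11.7 CPM in C75S against 305.6 ± 6.60 CPM in WT with no overlap, a log2 difference of 0.17 that just missed the threshold (edgeR adjusted p = 0.0513), and 7 of the 16 alternatives called it, DESeq2 and limma-voom among them.

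**Figure D4:**
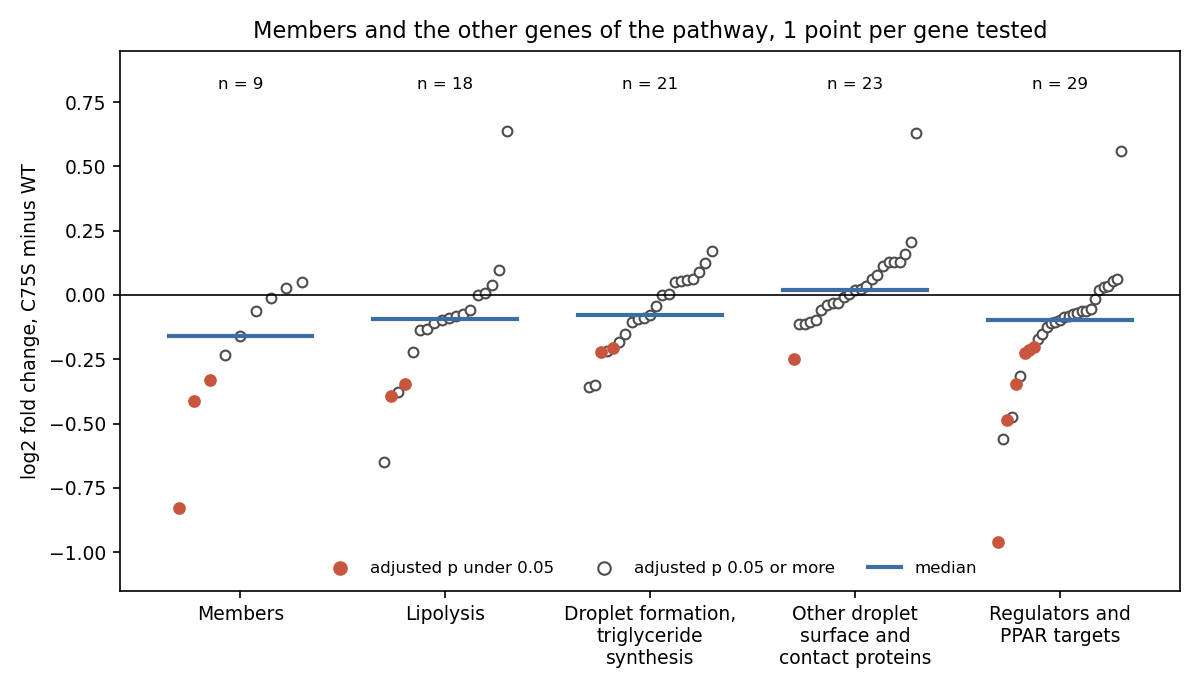
Log2 fold change of C75S against WT (vertical axis) of the 9 tested members and of each tested gene of the 4 lists, 1 point per gene in rising order, with the median as a line. Filled points passed an adjusted p of 0.05, and all of them lie below 0, from -0.20 for *Mlxipl* to -0.96 for *Fgf21*.

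Of the lipolysis genes, *Mgll*, the lipase that ends triglyceride breakdown, fell in C75S hepatocytes to 60.3 ± 8.52 CPM, from a WT level of 79.2 ± 2.88 CPM. Its log2 fold change was -0.39, with an SE of 0.08 and an adjusted p of 0.00813 in edgeR's test. The call was lost without WT replicate 1 or 3. *Ces2e*, a carboxylesterase, fell from 65.1 ± 6.25 to 51.1 ± 5.33 CPM (edgeR adjusted p = 0.0147), a call lost without C75S replicate 1 or 3 or WT replicate 1 or 3. It belongs to a gene cluster of similar copies, and reads that matched several places were not counted, so its value is uncertain. *Lipe*, hormone-sensitive lipase, differed by less than its spread between libraries, with 7.67 ± 0.73 in C75S against 7.69 ± 0.41 CPM in WT. *Hilpda*, another inhibitor of the *Pnpla2* lipase, was at 15.1 ± 0.36 and 16.5 ± 3.14 CPM, and *Pnpla3*, the lipase-like gene tied to human fatty liver, at 0.65 ± 0.14 and 0.68 ± 0.22 CPM.

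Of the genes for droplet formation, *Acsl1*, which makes acyl-CoA, fell from 157.3 ± 11.5 to 135.1 ± 9.77 CPM (edgeR adjusted p = 0.0402), with the groups overlapping. *Lpin2*, a phosphatidate phosphatase, fell from 826.7 ± 46.1 to 716.1 ± 42.7 CPM (edgeR adjusted p = 0.0443). Both lost their call without C75S replicate 1 or 2 or WT replicate 2 or 3. The final enzymes of triglyceride synthesis were not called: *Dgat1* had a mean of 19.8 CPM in both genotypes, with SDs of 0.54 (C75S) and 1.12 CPM (WT), and *Dgat2* at 129.5 ± 7.57 and 143.9 ± 6.55 CPM. *Bscl2*, which encodes seipin, was at 22.6 ± 0.71 and 21.2 ± 1.76 CPM, and *Fitm2*, which helps droplets bud, at 39.0 ± 0.68 and 41.1 ± 0.36 CPM. On the droplet surface, *Hsd17b13*, a liver droplet enzyme, fell from 1330 ± 79.5 to 1120 ± 77.0 CPM, which is -0.25 on the log2 scale (SE 0.06; adjusted p in edgeR's test 0.0188). That call was lost when C75S replicate 1, WT replicate 2 or WT replicate 3 was left out.

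Among the regulators, *Pparg*, whose product is known to drive *Cidec* and *Plin4* in fat and fatty liver, had 15, 14.1 and 14.5 CPM in C75S and 17.9, 19.3 and 18.1 CPM in WT. The groups did not overlap, and the difference on the log2 scale was -0.35 (SE 0.09; adjusted p in edgeR's test 0.043). The call was lost when any 1 of the 6 libraries was left out, with DESeq2 and with library-size scaling, at adjusted p-values up to 0.186 (without WT replicate 2). *Ppara*, the main PPAR of hepatocytes, had 28.8 ± 2.00 CPM (C75S) against 30.1 ± 3.05 CPM (WT), and *Creb3l3*, which is known to act on *Cidec* in liver, at 91.7 ± 13.6 and 102.0 ± 9.93 CPM.

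*Foxo1*, a factor of the fasting response known to raise *Pnpla2*, fell from 164.7 ± 8.73 to 140.8 ± 5.86 CPM (edgeR adjusted p = 0.0148), a call lost without C75S replicate 1 or 2 or WT replicate 2 or 3. *Angptl4*, a PPAR target and inhibitor of lipoprotein lipase, fell from 267.5 ± 23.4 to 230.6 ± 11.7 CPM (edgeR adjusted p = 0.042). Its call was lost without C75S replicate 1 or 3 or WT replicate 1 or 3, with library-size scaling and with the replicate number as a block (adjusted p = 0.0529). The other called genes were *Fgf21*, *Fabp1* and *Mlxipl*, at log2 fold changes of -0.96, -0.49 and -0.20 (edgeR adjusted p = 0.0122, 0.0164 and 0.0205). The call of *Fgf21* was lost when C75S replicate 3 or WT replicate 1 was left out, that of *Fabp1* without C75S replicate 1 or WT replicate 3, and that of *Mlxipl* without C75S replicate 2 or 3 or WT replicate 1 or 3.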

How the data were processed

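The deposited values are raw read counts per Ensembl gene and strand. Per the submitters' processing notes, Trim Galore 0.6.6, STAR 2.7.9a, edgeR 3.36.0 and GRCm38 (mm10) were used; the annotation release is not given in the sources used here. The reverse-strand counts, 32.9 to 33.9 times the forward ones, were used, without the 4 rows of unassigned reads (28.8% to 30.2% of reads). Reads at several places were not counted to genes. Names and positions came from GENCODE M21 (GRCm38) and promoters from RefSeq. Of 166 list genes 165 matched, 1 through a synonym.

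Genes were filtered with filterByExpr (minimum count 10, total 15), scaled by TMM and fitted with edgeR 4.0.16 (R 4.3.3), genotype being the single term. Two-sided quasi-likelihood p-values were adjusted by Benjamini-Hochberg over all 12741 genes. SE is the log2 fold change over the square root of F. The procedure was tested on simulated data. The members and lists were chosen with earlier results of these data known. Named are all members, up to 6 called genes per pathway list by p-value, 13 preset genes and the 3 genes most like *Cidec* and *Plin2*. *Cdc73*'s values, the neighbours, the marker genes, *Cyp4a10* and the genes called higher in alternatives were added after values were seen. The result of a further marker gene is not reported here. Alternatives covered scaling, DESeq2 1.42.0, limma-voom (limma 3.58.1), filters, strand, a replicate block, mitochondrial genes and single libraries.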

Additional observations from a re-analysis of the deposited data

How the results depend on the processing

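The 3 members were called in each of the 10 alternatives that kept all 6 libraries, and 2 to 4 members when 1 library was left out. *Cidec* ranged from -0.86 to -0.78 and *Plin4* from -0.45 to -0.38 over all 16 alternatives and were called in each. The members were chosen with this contrast known and the alternatives reuse the same libraries. These repeated calls therefore show only how far the values depend on the settings and are no independent support. The number of genes called was 396, 381 to 573 with all libraries, and 201 to 355 without 1 library (leaving out C75S replicate 1 gave 253, WT replicate 2 gave 201 and WT replicate 3 gave 246). The lists moved more. Lipolysis, with 2 called, had 5 with no filter (1 of them, *Ces1f*, higher in C75S) and 0 to 2 without 1 library. Droplet formation, with 2, had 4 with library-size scaling and with DESeq2, 5 with no filter, and 0 to 4 without 1 library. In each of these 3 alternatives with all libraries, with the replicate block, upper-quartile scaling and limma-voom, and without C75S replicate 3, 1 of the calls was *Acsl5*, higher in C75S. The surface list, with 1, had 2 with no filter and 0 to 1 without 1 library. *Hsd17b11*, higher in C75S, was 1 of the 2 with no filter and the single call without WT replicate 3. The regulators, with 6, had 4 to 7 with all libraries and 1 to 5 without 1. Of the 10 members, 5 kept their place in the order of levels with the longest transcript and 4 with unstranded counts, in which *Cideb* loses reads to *Nop9*, and 10 without any 1 library. For the other changes the cause was not tested.

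Libraries with the same replicate number did not deviate together (correlations of 0.017, -0.040 and 0.025), so the numbers were not taken as pairs. With the replicate block 480 genes and the 3 members were called, and droplet formation had 5. The block gave -0.83 for *Cidec*, -0.41 for *Plin4* and -0.33 for *Plin5*. With 2 to 14 counts in a library, the interval for *Cidea* was wide and included 0.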

Other observations

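Reads on the opposite strand of the members were not used above. *Cidec* had 39, 30 and 41 such counts in C75S and 76, 24 and 43 in WT, 7.74% of its reads on both strands, although no annotated gene of GENCODE M21 overlaps it. Of all tested genes, 7.47% had a higher share, and the median share was 0.0626%. On this strand the genotypes overlapped, with 1.95 ± 0.46 CPM for C75S against 2.29 ± 1.23 CPM for WT. A two-sided exact permutation test gave p = 0.9, and the smallest p that 3 against 3 libraries allow is 0.1. *Cideb*, whose exons overlap *Nop9*, had 30, 16 and 20 opposite-strand counts in C75S and 4, 19 and 9 in WT.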
